A study of Mus musculus with 16 samples.

Results

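The imprinted miRNA cluster between Dlk1 and Dio3 was followed here in mouse muscle cells through 50 mature miRNA names, chosen by name alone. A sequence was counted for a member when the miRNA name it was listed under, without the mismatch label in parentheses, was one of the 50. Of the 50 names, 48 were among the 2510 names listed in the data, and miR-299a-3p and miR-299a-5p were not. The files name that hairpin's arms miR-299-3p, with 8 reads, and miR-299-5p, with 9 reads, of which 1 matched the hairpin. The members come from 43 hairpins, all on the plus strand of chromosome 12 in GRCm38 (mm10), between chr12:109571990-109572080 (Mir673) and chr12:109743715-109743795 (Mir410).

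The locus is imprinted: its small RNAs and the long non-coding RNAs that carry them (Meg3, the antisense transcript of Rtl1, Rian and Mirg) are made from the chromosome inherited from the mother, while Dlk1, Rtl1 and Dio3 are expressed from the paternal one. The miRNAs are known for high levels in embryo, placenta and brain. In muscle cells the transcription factor MEF2A is known to activate the locus, and miR-410 and miR-433 are known to repress the WNT inhibitor sFRP2.

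Small RNA libraries were made from C2C12 cells, a mouse myoblast line whose cells fuse into myotubes when serum is lowered. The 16 libraries form 4 groups of 4: wild-type control cells and cells with a triple knockout (tKO) of the hairpins miR-1a-1, miR-1a-2 and miR-206, each in growth medium with 20% fetal bovine serum (GM) and after 3 days in 2% horse serum (DM3). A group is made of 2 populations (control) or 2 clones (tKO), sequenced in 2 biological replicates apiece. Libraries of 1 population or clone are not independent of each other, and p-values measure the spread between these libraries. All cells were described as PAX7 NEG C2C12 cells, a term the labels do not explain. Each knockout line is a single clone, so a clone's own traits cannot be told apart from the knockout beyond what 2 clones allow.

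The tables held between 112792 and 6543570 reads per library, 38541236 in all. The knocked-out miR-206-3p was at a mean of 1156 CPM (counts scaled to a table total of 1000000 reads) in control GM against 6.79 in tKO GM, and at 34361 against 21.8 CPM in DM3. Of the markers of other tissues, neural miR-9-5p (819 listed reads, 100% matched to its hairpin) had means of 43.5 and 30.05 CPM in control GM and DM3 against 3.41 and 3.51 CPM in tKO, while neural miR-124-3p was listed at 0. The 3 neural markers, of which 2 were listed, summed to between 37.7 and 61.6 CPM in the libraries of control GM and between 19.4 and 42.7 CPM in those of control DM3. In tKO libraries the sum was between 1.62 and 6.13 CPM (GM) and between 0 and 9.03 CPM (DM3). Liver miR-122-5p had 861 reads and 0 to 75.5 CPM per library, highest in tKO GM. For 4 of 4 epithelial markers the summed level per library was 9.76 to 14.1 CPM in control GM and 16.2 to 34.2 in tKO GM. In DM3 it was 2.51 to 8.64 CPM in control and 8.14 to 28.8 in tKO. The 2 of 2 endothelial markers summed to 14.1 to 27.9 CPM in control GM and 2.42 to 15.8 in tKO GM. Their DM3 sums were 5.02 to 16.0 CPM in control and 4.07 to 20.2 in tKO. For 5 of 6 blood markers the sum was 0 to 16.3 CPM, with miR-142a-5p at 0 and miR-451a at 2 reads in all. The part of such cells in the values of the cluster was not tested. Sequences of 13 to 15 nt took 1.07 to 4.33% of a GM library and 1.86 to 13.98% of a DM3 library. The 4 DM3 libraries of replicate 1 were the shallowest of their lines and held 112792 to 736900 reads.

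The sequences that were counted under the member names and the sequences of the miRNAs themselves were mostly not the same, so both are shown. The first set gives the 9 members with at least 10 reads that were 16 nt or longer and found unchanged in the member's own hairpin (called matched reads here). The mature sequences are from RefSeq (GRCm38.p6), 5′ to 3′, and capitals mark the seed, bases 2 to 8, which pairs with targets.
miR-127-3p: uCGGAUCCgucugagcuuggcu
miR-541-5p: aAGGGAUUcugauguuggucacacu
miR-543-3p: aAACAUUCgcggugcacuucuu
miR-411-5p: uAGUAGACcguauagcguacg
miR-381-3p: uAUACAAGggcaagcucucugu
miR-495-3p: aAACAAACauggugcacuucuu
miR-369-3p: aAUAAUACaugguugaucuuu
miR-409-3p: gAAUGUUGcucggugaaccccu
miR-379-5p: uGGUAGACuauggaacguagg
No 2 of these 9 share a seed. The seeds of miR-543-3p and miR-495-3p, and those of miR-379-5p and miR-411-5p, differ in few bases but are not equal.

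The second set gives the most frequent sequence of the 4 members with the most listed reads, the next most frequent one of miR-668-3p, and the most frequent sequence of miR-380-3p and miR-434-3p, which the tests below turn on, as they stand in the deposited tables. Capitals mark the base that differs from the miRNA's hairpin, and the substitution gives the hairpin's base, the position from 1 at the 5′ end of the listed sequence, and the read's base.
miR-369-3p, A4C: tacCtggttgatc
miR-668-3p, G1A: Atcactcggctcg
miR-668-3p, C6A: ctcggAtcggccc
miR-134-5p, G6C: tgtgtCactggtt
miR-370-3p, G2T: gTgtggaacctgg
miR-380-3p, T10G: ctacttctgGgtcg
miR-434-3p, T12C: tcgactcctggCt
The first of these made up 46122 of the 46560 reads under miR-369-3p and aligned to bases 6 to 18 of the mature sequence. The 2 listed under miR-668-3p had 16062 and 6348 of its 22967 reads. The G1A sequence occurs letter for letter in n-R5-8s1, a gene for 5.8S ribosomal RNA, among the transcripts of GENCODE M21. The miR-369-3p sequence, the C6A sequence of miR-668-3p and the miR-380-3p sequence were found in 0 GENCODE genes; they were not compared here with the 18S and 28S ribosomal RNAs. The miR-134-5p sequence occurs letter for letter in 5 GENCODE genes (Dapp1, Ddx50, Gm47670, Nit1 and Scfd2), the miR-370-3p sequence in 3 (4930481B07Rik, Cic and Coro2a) and the miR-434-3p sequence in 3 (Gm26938, Tmem184a and Tmem184b).

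Taken by name, the cluster had 75896 reads. Of these, 75546 (99.5%) were 13 to 15 nt long, against 2.26% of the reads of all names, and 75246 (99.1%) carried a mismatch, against 12.3% of the reads of all names. Matched reads numbered 258, or 0.340% of the reads listed under the members, while 89.5% of the reads of all names were matched to a miRNA hairpin. The data therefore go against the label for most of these reads: they are counted under cluster names but are not unchanged sequence of the cluster's hairpins. Listed and matched reads are given separately from here on.

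**Figure D1:**
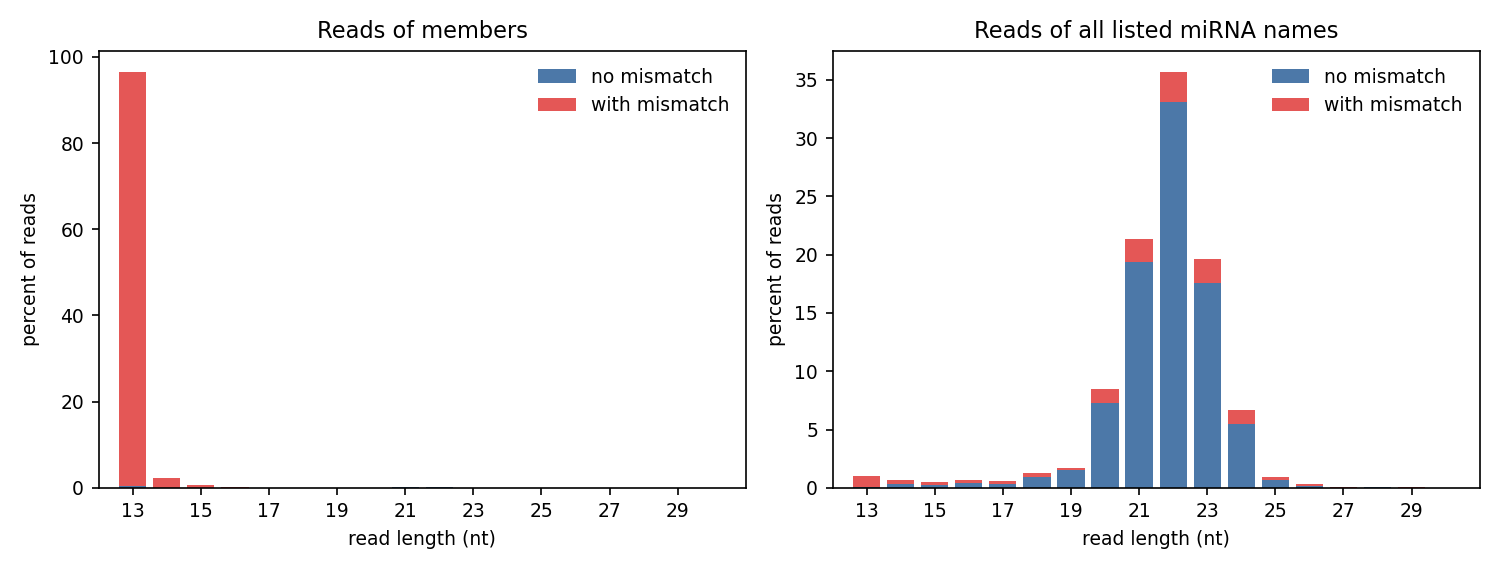
Percent of reads (vertical axis) by read length in nt (horizontal axis, 13 to 30 nt) for the members at left and for all listed miRNA names at right; red marks reads with a mismatch, blue reads without, and the vertical axes differ in scale. Member reads of 13 to 15 nt made up 99.5% of the total, while the reads of all names centred on the usual miRNA length.

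The reads were also unevenly spread over the names. miR-369-3p, known to bind AU-rich elements, and miR-668-3p together held 91.6% of the listed reads, and they were the 2 members with a group mean of at least 100 CPM. miR-134-5p, known to regulate Limk1 in dendrites, had 2619 listed reads and miR-370-3p had 1106. The other 44 listed members had 2644 reads together. Over all 16 libraries, 23 members had a mean listed level under 1 CPM and 21 between 1 and 10 CPM. For 36 of the 48 listed members the most frequent sequence was 13 to 15 nt long, and for 38 it carried a mismatch. Among the 17 members with at least 50 listed reads, 12 (70.6%) had under 1% matched reads; of all 1355 names with at least 50 reads, 391 (28.9%) did.

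Matched reads were found for 29 members, and the order of the members by them was unlike the order by listed reads. The highest were miR-127-3p with 44 of its 68 listed reads, miR-541-5p with 32 of 85 and miR-543-3p with 25 of 47. miR-127-3p lies opposite Rtl1 and is fully complementary to its mRNA. miR-411-5p had 21 matched reads, miR-381-3p 18, miR-495-3p 17, miR-369-3p 13, miR-409-3p 13 and miR-379-5p 10. The next, miR-410-3p and miR-300-3p, had 8 each. Both leaders by listed reads dropped: miR-369-3p kept 13 of 46560 reads and miR-668-3p 0 of 22967. miR-134-5p kept 7, miR-370-3p 1 and miR-433-3p 4. Matched reads were 0 for 19 listed members, among them miR-431-5p, which is known to act on Pax7 in muscle progenitors and had 13 listed reads.

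**Figure D2:**
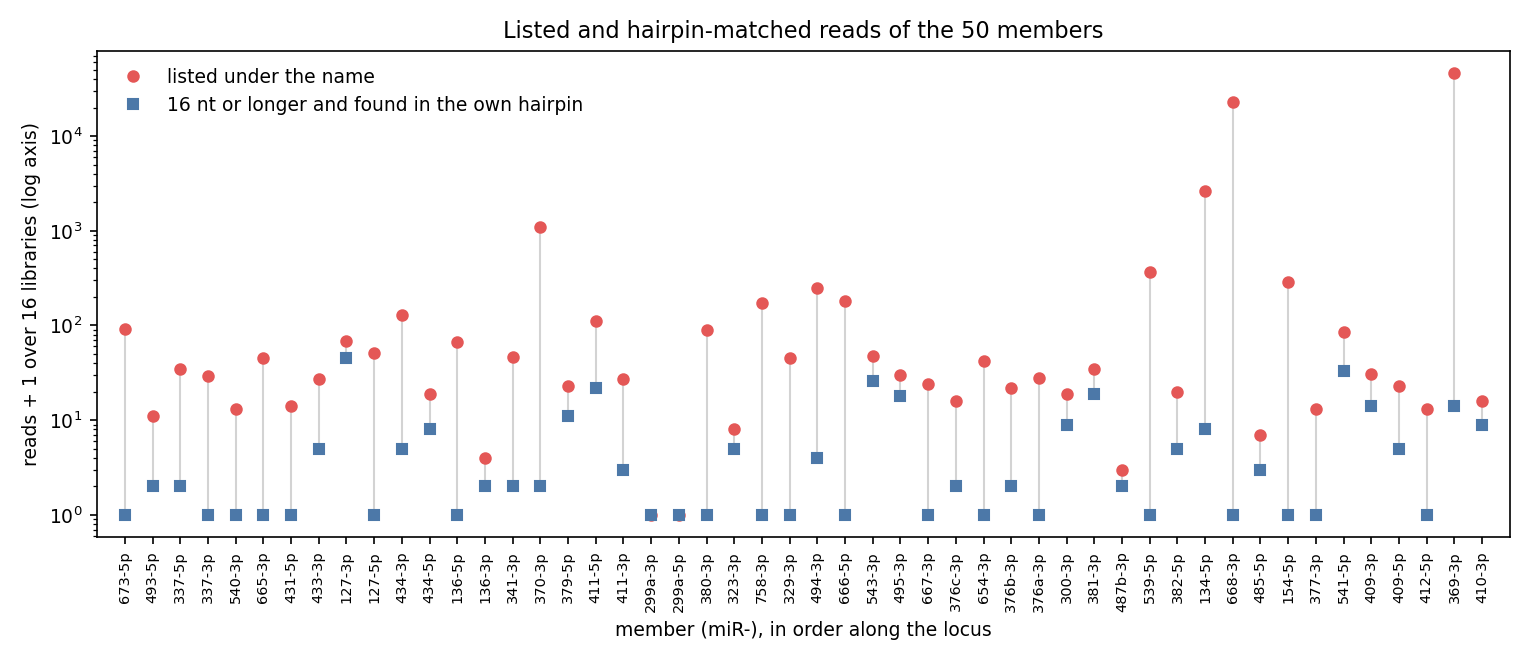
Reads + 1 over 16 libraries (vertical log axis) for the 50 members in their order along chromosome 12; red circles are reads listed under the name, blue squares are matched reads, and a member with 0 reads sits at 1. miR-369-3p and miR-668-3p have the highest circles, with 13 and 0 matched reads, and miR-127-3p has the highest square, with 44.

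Matched reads had the form of processed miRNAs. Of the 254 matched reads of members with a RefSeq mature sequence, 234 (92.1%, exact binomial 95% interval 88.1 to 95.1%) started at the first base of the mature sequence and 253 started within 3 bases of it. Of the 258, 245 were 18 to 25 nt long. None of the matched sequences was found in a GENCODE transcript outside the domain.

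By matched reads the arms of miR-127 and miR-411 were unequal. miR-127 had 44 matched reads from its 3p arm and 0 from its 5p arm, so that the 3p share was 100% with a lower bound of 92.0% (exact binomial 95% interval). By listed reads that share was 57.6%, from 68 and 50 reads. For miR-411 the 5p arm led with 21 matched reads against 2. The 3p arm of miR-409 had 13 against 4 (76.5%, interval 50.1 to 93.2%), with a lower bound close to equal arms. miR-434 had 4 matched reads from the 3p and 7 from the 5p arm, a 3p share of 36.4% (interval 10.9 to 69.2%), which its counts do not separate from equal arms. By listed reads the 3p share of miR-434 was 87.6% of 145 reads.

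Some miRNAs of the cluster are edited by ADAR enzymes, which turn A into inosine, read as G. At base 4 of miR-381-3p, within the seed, A4G made up an expected count of 5 among 23 pooled over all libraries (21.7%, exact binomial 95% interval 7.46 to 43.7%), and editing was not told apart from other sources of the mismatch. At base 5 of miR-411-5p it was 0 of 21 reads, with an upper bound of 16.1%, and at base 5 of miR-379-5p 0 of 10, with an upper bound of 30.8%. miR-376a-3p had 0 reads at its site, and miR-376b-3p had 1 read, with A. The A4G sequence equals the first 20 bases of miR-300-3p, a neighbour in the locus that has G there, whereas miR-381-3p itself shares the first 3. The next lines show the most frequent read with A4G, with the base in question in capitals, and miR-300-3p with its seed in capitals.
miR-381-3p with A4G: tatGcaagggcaagctctctgt
miR-300-3p: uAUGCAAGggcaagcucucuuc
Within the count of 5, 3 reads of 22 nt ran past the shared bases and ended like miR-381-3p, 1 each in control GM population 2 replicate 1, tKO DM3 clone 1 replicate 2 and tKO DM3 clone 2 replicate 2. That last library also held 1 read of 20 nt, which cannot be told apart from miR-300-3p. The other 1 is the sum of 2 sequences of 21 nt counted as 0.5 each, in control GM population 2 replicate 2 and tKO GM clone 2 replicate 2, where the authors' tables list the other 0.5 under miR-300-3p. The members had 8 other A-to-G mismatches in reads of 18 to 25 nt, each seen in 1 read at most.

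The members fall into blocks along the locus. From Meg3 to the antisense of Rtl1 there are 14 names with 589 listed and 62 matched reads, 44 of these from miR-127-3p. The Rian gene holds miR-341-3p and miR-370-3p, with 1152 listed and 2 matched reads. The block from miR-379 to miR-410, of which the annotated Mirg gene holds 11 hairpins, has 34 names with 74155 listed and 194 matched reads in 20 names. Among the other miRNAs of the domain, 51 of 57 names were listed, with 12 matched reads in 9 names.

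Across the groups, the matched reads of the members summed to 63.5 in GM and 12 in DM3 in control cells, and to 83.5 in GM and 99 in DM3 in tKO cells. Fractions arise where a sequence was shared between names. Relative to the pooled reads of the group, control cells had 4.39 CPM in GM (exact Poisson 95% interval 3.38 to 5.61) and 2.63 CPM in DM3 (1.36 to 4.59). The knockout cells had 7.60 CPM in GM (6.06 to 9.41) and 11.6 CPM in DM3 (9.45 to 14.1). Intervals cover counting error alone, since the reads carry no molecular identifiers.

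By library, control GM had 5.86 and 4.35 CPM in population 1 and 2.63 and 4.81 in population 2 (replicates 1 and 2 each). tKO GM had 5.65 and 10.7 CPM in clone 1 and 2.78 and 8.43 in clone 2. Control DM3 had 0 and 5.40 CPM in population 1 and 0 and 2.34 in population 2. tKO DM3 had 0 and 15.7 CPM in clone 1 and 0 and 11.01 in clone 2. For their 0, the DM3 libraries of replicate 1 had exact Poisson 95% upper bounds of 14.9, 9.27, 32.7 and 5.01 CPM, in the order above. In 3 of these 4 libraries the level of the deeper replicate lay below the bound, so the 0 does not set the replicates apart. In tKO DM3 clone 2 the bound of 5.01 CPM was below the level of replicate 2. The groups tKO and control overlapped in GM and in DM3 when all libraries were used. In replicate 2 alone, both tKO clones were above both control populations in each medium: 8.99 CPM pooled in tKO GM (7.03 to 11.3) against 4.60 in control GM (3.47 to 5.98), and 12.9 in tKO DM3 (10.5 to 15.7) against 3.06 in control DM3 (1.58 to 5.35). In replicate 1 the GM values were 3.95 in tKO (2.04 to 6.90) and 3.32 in control (1.43 to 6.54). Both DM3 values of replicate 1 were 0, with pooled upper bounds of 4.34 CPM in tKO and 5.71 in control. The tKO DM3 bound lies below the tKO DM3 interval of replicate 2, so replicate 1 did not reproduce that level or its difference from control. The sum was not tested, because its members were chosen together. In bulk RNA, fewer cells with a miRNA and less of it per cell cannot be told apart.

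**Figure D3:**
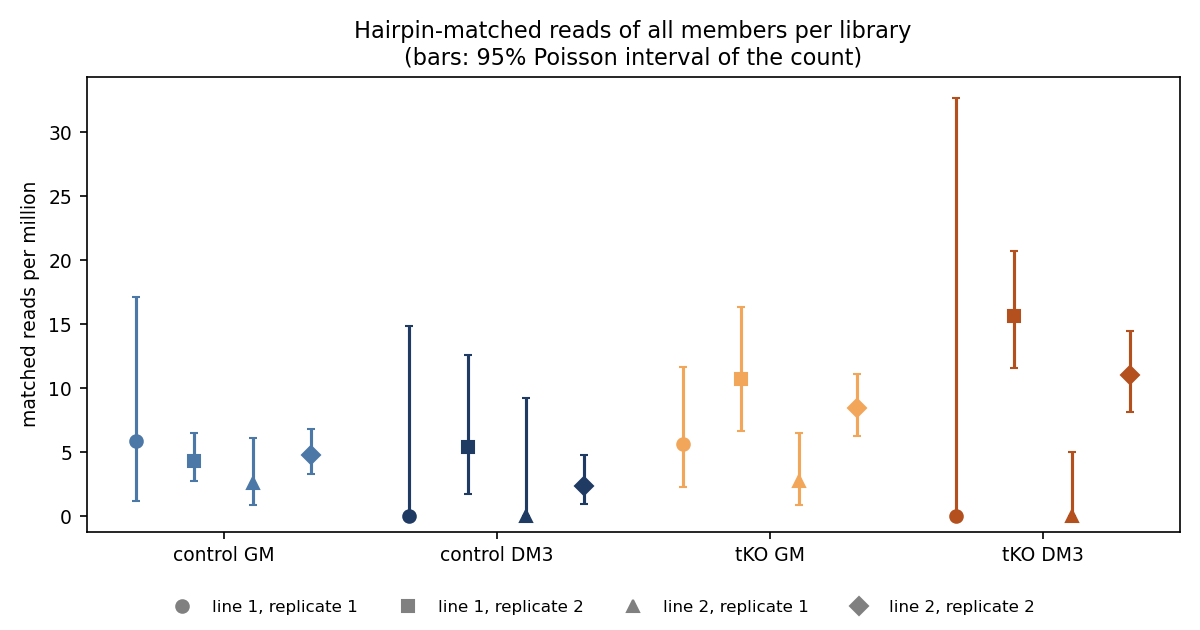
Summed matched level of all members in CPM (vertical axis) in each of the 16 libraries by group; bars are exact Poisson 95% intervals, and line 1 or 2 is the control population or tKO clone. The replicate 2 libraries of tKO DM3 are highest, at 15.7 and 11.01 CPM, and the 4 DM3 libraries of replicate 1 are at 0 with wide intervals.

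Single members followed different courses, each on few reads. miR-541-5p had 3 matched reads in GM (0.207 CPM, exact Poisson 95% interval 0.0428 to 0.606) and 4 in DM3 (0.876 CPM, 0.239 to 2.24) from control cells. From tKO cells it had 5 in GM (0.455 CPM, 0.148 to 1.06) and 20 in DM3 (2.35 CPM, 1.43 to 3.63). Its tKO DM3 interval lies above both GM intervals and overlaps that of control DM3. For miR-127-3p, control cells gave 13 reads in GM (0.899 CPM, 0.478 to 1.54) and 0 in DM3 (upper bound 0.808 CPM), and tKO cells gave 20 in GM (1.82 CPM, 1.11 to 2.81) and 11 in DM3 (1.29 CPM, 0.645 to 2.31). Among these groups, the control DM3 bound lies below the tKO GM interval alone. In the order control GM, tKO GM, control DM3 and tKO DM3, miR-381-3p had 3, 4, 0 and 11 reads, and miR-379-5p 0, 2, 0 and 8. The miR-381-3p interval in tKO DM3 (0.645 to 2.31 CPM) lies above that of control GM (upper bound 0.606 CPM) and overlaps the others. The miR-379-5p interval in tKO DM3 (0.405 to 1.85 CPM) lies above the bound of control GM (0.255 CPM) and overlaps the others. Both members reached the minimum of 10 matched reads only with their tKO DM3 reads, so these comparisons are descriptions. Of the 8 miR-379-5p reads in tKO DM3, 7 came from clone 2 replicate 2. miR-495-3p had 10, 5, 0 and 2 reads and miR-543-3p 8, 11, 1 and 5. miR-411-5p had 3, 7, 2 and 9, miR-409-3p 5, 5, 0 and 3, and miR-369-3p 7, 6, 0 and 0. Intervals that do not overlap are a statement on read counts in pooled libraries, not on the spread between lines.

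The listed reads, summed over the members, gave 2154 ± 1036 CPM in control GM (mean ± SD, n = 4) and 2342 ± 907 in tKO GM, and 6913 ± 6765 in control DM3 and 3096 ± 1888 in tKO DM3. The control DM3 mean rested on population 1, replicate 1, at 16918 CPM, and was 3578 CPM without it. These sums follow the 13 to 15 nt sequences of miR-369-3p and miR-668-3p.

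For miR-369-3p, the listed level in control GM was 3115 and 995 CPM in population 1 and 1871 and 1033 in population 2. In control DM3 it was 15119 and 912, and 2944 and 587. In tKO GM it was 1570 and 1508 CPM in clone 1 and 3082 and 761 in clone 2, and in tKO DM3 1986 and 542, and 3314 and 500. In each of the 8 pairs replicate 1 was above replicate 2, and the 4 groups overlapped. The A4C sequence had means of 1741 ± 985, 4841 ± 6836, 1712 ± 966 and 1567 ± 1335 CPM in control GM, control DM3, tKO GM and tKO DM3 (SD, n = 4).

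For miR-668-3p, control GM had 437 and 402 CPM in population 1 and 188 and 231 in population 2, and control DM3 had 1585 and 3279, and 1276 and 1212. All control DM3 libraries were above all control GM libraries. tKO GM had 238 and 774 CPM in clone 1 and 333 and 448 in clone 2, and tKO DM3 had 2677 and 928, and 851 and 478, and these groups overlapped. Its 2 sequences moved unequally. The G1A sequence, found in 5.8S rRNA, had 287 ± 126 CPM in control GM and 846 ± 198 in control DM3, and 399 ± 198 and 767 ± 467 in tKO. The C6A sequence had 19.3 ± 11.4 CPM in control GM and 948 ± 811 in control DM3 (lowest 465, against a highest of 36.4 in GM), and 37.1 ± 32.8 and 428 ± 490 in tKO (lowest 152 in DM3, highest 86.3 in GM).

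**Figure D4:**
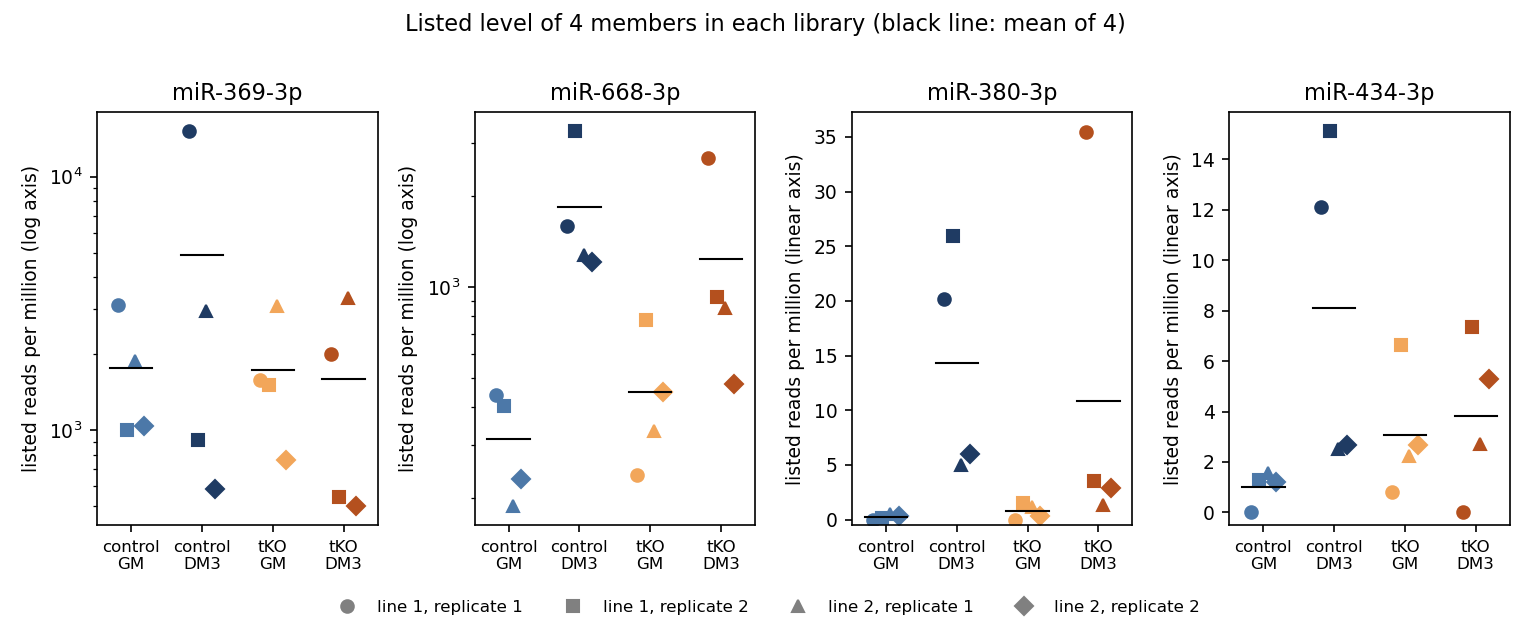
Listed level in CPM of miR-369-3p and miR-668-3p (log axes) and of miR-380-3p and miR-434-3p (linear axes) in each library by group; a point is a library, its shape gives line and replicate, and the black line is the mean of 4. For miR-668-3p, miR-380-3p and miR-434-3p the control DM3 points lie above all control GM points, and for miR-369-3p the groups overlap with 1 control DM3 library at 15119 CPM.

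Listed counts were compared between groups with edgeR's quasi-likelihood test over 881 names with enough reads, with Benjamini-Hochberg adjustment over all of them and 0.05 as the threshold. The filter on low counts kept 10 of the 50 members: miR-134-5p, miR-154-5p, miR-369-3p, miR-370-3p, miR-380-3p, miR-434-3p, miR-494-3p, miR-539-5p, miR-666-5p and miR-668-3p. Each was led by a 13 to 15 nt sequence with a mismatch, and of the 9 members with 10 or more matched reads the filter kept miR-369-3p alone. A member that is high in 1 group may have passed through that group. The tests below are therefore about listed names, not about processed miRNAs of the cluster.

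With differentiation of the control cells, 3 of the 10 members tested were called, each higher in DM3, while 28.3% of all names tested were called in either direction. DESeq2 also called these 3, beside 32.7% of names. The median log2 fold change was 0.94 over the 10 members and -0.04 over all names tested. With no filter on low counts it was 0.07 over the 48 listed members and -0.16 over all 2510 names, so the median of 0.94 describes only the members that passed the filter. miR-668-3p rose by 2.21 on the log2 scale (SE 0.46, adjusted p = 0.00128 with edgeR). miR-380-3p, encoded beside miR-379 and miR-411, had 0 and 0.181 CPM in population 1 and 0.527 and 0.306 in population 2 in GM, against 20.2 and 25.9, and 5.02 and 6.02, in DM3. The fit gave a log2 fold change of 5.0 (SE 0.92, adjusted p = 0.000536 with edgeR), against at most 2 reads in any control GM library. It had passed the filter through DM3 libraries, where it is high, so this fold depends on the fit at counts near 0 and its call is a description rather than support for a rise. miR-434-3p, from a hairpin opposite Rtl1, had 0 and 1.27 CPM, and 1.58 and 1.22, in GM, and 12.1 and 15.1, and 2.51 and 2.67, in DM3. The fit gave a log2 fold change of 2.18 (SE 0.69, adjusted p = 0.0230 with edgeR). For these 3 and for miR-370-3p, which was not called (lowest 31.8 CPM in DM3, highest 31.2 in GM), the control DM3 libraries were above every control GM library, 4 of 10 members beside 32.1% of all names without overlap in either direction. With the control libraries alone in the fit, 6 members passed the filter, miR-380-3p and miR-434-3p not among them, and miR-668-3p was the 1 called, beside 39.6% of all names. The call of miR-434-3p, with at most 8 reads in a control GM library, is therefore also a description.

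None of these 3 differences was carried by matched reads. miR-668-3p and miR-380-3p had 0 matched reads in all 16 libraries, and miR-434-3p had 1 in control GM, 0 in tKO GM, 0 in control DM3 and 3 in tKO DM3. With sequences of 13 to 15 nt left out, a setting chosen after seeing the data, or with unchanged sequences of 18 to 25 nt only, 0 of the 50 members had enough reads to be tested. The share of 13 to 15 nt reads in the whole library moved with the comparison, from 1.07 to 1.89% in control GM and 3.31 to 9.59% in control DM3, and its part in these differences was not tested.

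The calls also depended on libraries. In replicate 1 alone, where 13.9% of names were called, neither miR-668-3p nor miR-380-3p was: the log2 fold change was 1.73 for miR-668-3p (edgeR adjusted p = 0.0709) and 3.88 for miR-380-3p (adjusted p = 0.195). In replicate 2 alone both were called, beside 15.1% of names, with log2 fold changes of 2.55 (edgeR adjusted p = 0.00555) and 5.47 (adjusted p = 0.00283). miR-434-3p was not called without control DM3 population 1 replicate 2 (log2 fold change 1.45, edgeR adjusted p = 0.207). Nor was it called without control GM population 1 replicate 2 (edgeR adjusted p = 0.0604) or population 2 replicate 2 (edgeR adjusted p = 0.0576). It was also not among the members called in replicate 2 alone or with no filter on low counts (9.64% of names called).

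With differentiation of the tKO cells, 19.9% of all names were called and 0 of the 10 members with edgeR (3 at an unadjusted p under 0.05), while miR-380-3p and miR-668-3p were called both by edgeR with line and replicate as a block (2 of 10, beside 25.7% of all names) and by DESeq2 (2 of 10, beside 26.5% of the 875 names with an adjusted p). With the replicates of a line summed, edgeR called 0 of 19 members, beside 10.6% of all names. Without block or summing, miR-668-3p had a log2 fold change of 1.26 (SE 0.45, edgeR adjusted p = 0.0519), and miR-380-3p one of 2.46 (SE 0.91, edgeR adjusted p = 0.0611). The third, miR-494-3p, which was not called, had one of -1.41 (SE 0.65, edgeR adjusted p = 0.141), the direction opposite to the other two. miR-668-3p was called without tKO DM3 clone 2 replicate 2 (adjusted p = 0.0295) and without control DM3 population 1 replicate 2 (adjusted p = 0.0463), and its log2 fold change was 0.62 (adjusted p = 0.292) without tKO DM3 clone 1 replicate 1, the shallowest library. The replicates differed: miR-668-3p had a log2 fold change of 2.30 in replicate 1 (edgeR adjusted p = 0.0236) and 0.27 in replicate 2 (adjusted p = 0.800), beside 22.8% and 6.44% of names called. miR-380-3p had 0 and 1.53 CPM in clone 1 and 1.11 and 0.334 in clone 2 in GM, against 35.5 and 3.52, and 1.36 and 2.86, in DM3. The 35.5 CPM came from 4 reads. The difference between control and tKO cells in the response to differentiation was tested as an interaction: 0% of names were called, and 0 members, by edgeR and by DESeq2 (42 names and 0 members at an unadjusted p under 0.05). For miR-668-3p the interaction was -0.94 on the log2 scale (SE 0.62), and for miR-380-3p -2.54 (SE 1.37), with an edgeR adjusted p of 0.920 for both.

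Between tKO and control cells, 0 of the 10 members were called in either medium, by edgeR or by DESeq2 (which called 2.74% of names in GM and 2.97% in DM3). In GM, edgeR called 1.36% of all names, and 1 member, miR-666-5p, was at an unadjusted p under 0.05. Its listed level was 1.95 and 1.27, and 2.63 and 0.306 CPM in control GM and 5.65 and 4.59, and 3.33 and 7.68 CPM in tKO GM, without overlap, as for 8.17% of all names (log2 fold change 1.99, SE 0.61, edgeR adjusted p = 0.149), and it had 0 matched reads. The median log2 fold change in GM was 0.83 over the 10 members and 0.12 over all names tested, and with no filter 0.49 over the 48 listed members and 0.19 over all names. In DM3, edgeR called 1.14% of all names and 0 members were at an unadjusted p under 0.05. Without tKO DM3 clone 1 replicate 1, the shallowest library, 6.58% of names (62 of 942) and 0 of 11 members were called. With all libraries the medians were -0.06 over the 10 members and 0.16 over all names tested; with no filter their order turned round, at 0.49 over the 48 listed members and 0.20 over all names. For miR-668-3p the log2 fold changes were 0.39 (SE 0.44) in GM and -0.55 (SE 0.44) in DM3. For miR-369-3p they were -0.01 (SE 0.76) and -1.36 (SE 0.78).

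**Figure D5:**
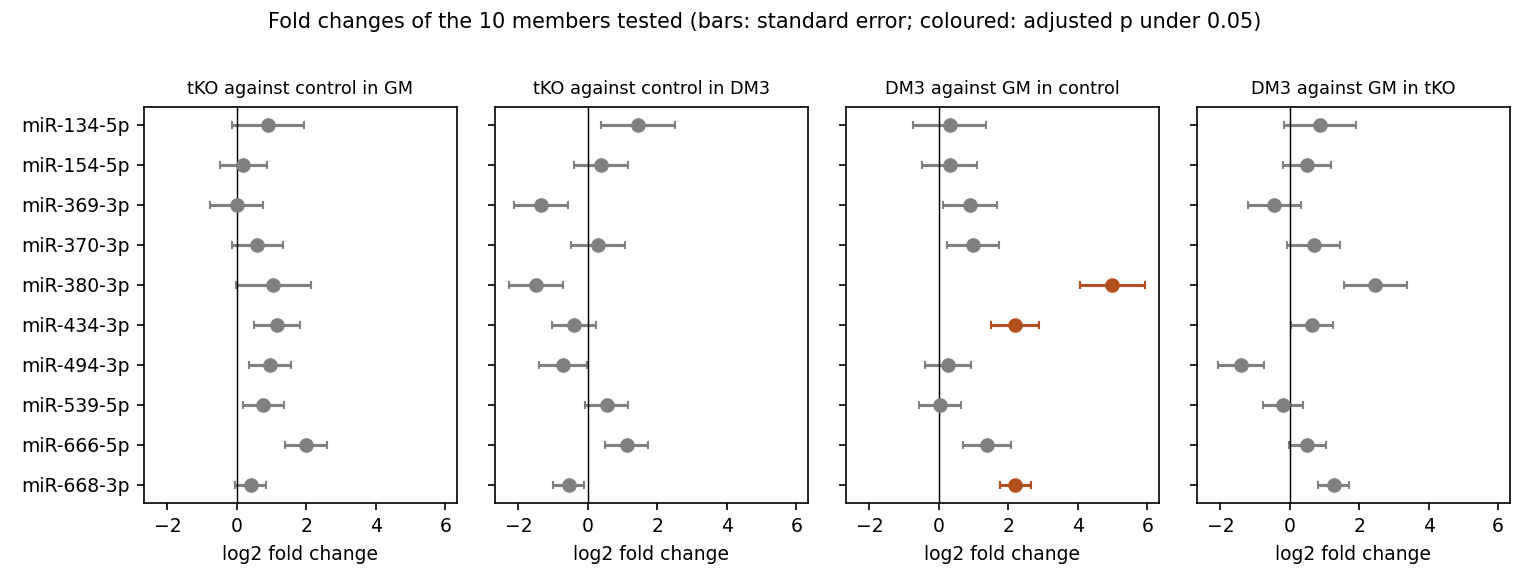
Log2 fold changes (horizontal axis) of the 10 members tested, in 4 comparisons; bars are standard errors and coloured points have an edgeR adjusted p under 0.05. In control cells miR-380-3p, miR-434-3p and miR-668-3p are coloured, at 5.0, 2.18 and 2.21, and no point is coloured in the other panels.

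The lines of a genotype were compared over both media. Between the tKO clones edgeR called 1.59% of all names and 0 members (1 at an unadjusted p under 0.05). That member, miR-370-3p, had a log2 fold change of -1.96 for clone 2 against clone 1 (SE 0.61, edgeR adjusted p = 0.159), with DESeq2 an adjusted p of 0.0155 (1 of 8 members, beside 6.31% of the 761 names with an adjusted p). It had 16.96 and 88.8 CPM in GM and 266 and 30.1 CPM in DM3 in clone 1, and 13.9 and 29.2, and 17.6 and 12.3, in clone 2, with 1 matched read in all. It was also called by edgeR without tKO DM3 clone 1 replicate 2, a fit in which the share of all names called was 11.8%, 109 of 927. Between the control populations edgeR called 0% of names and 0 members (41 names and 1 member at an unadjusted p under 0.05), and DESeq2 also called 0. The matched reads of the members were 4.48 CPM pooled in control GM population 1 (2.95 to 6.52) and 4.32 in population 2 (3.04 to 5.97), and 8.76 in tKO GM clone 1 (5.82 to 12.7) and 7.12 in clone 2 (5.37 to 9.26).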

How the data were processed

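Small RNA libraries of 16 C2C12 samples were deposited as tables made with unitas, per the file headers. cutadapt 1.15, STAR 2.5.4 and the build mm10 are named in the submitters' processing notes, with no role given. The deposited values are expected counts: the authors listed each sequence with a miRNA name, any mismatch and its reads, a read with several matches entering as a fraction. They carry no normalization. Expected counts were summed per name and rounded for tests. CPM is relative to the table total. A read counted as matched when it was at least 16 nt long and a stretch of the member's own GENCODE M21 hairpin. Hairpin coordinates are from that annotation.

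Tests used edgeR 4.0.16 in R 4.3.3 (TMM, robust quasi-likelihood, filterByExpr with a smallest count of 10, all 16 libraries in 1 fit), and DESeq2 1.42.0 as an alternative. The procedure was tested on simulated data, and no value from that test is given here. The precision follows from depths of 112792 to 6543570 reads. Each member is accounted for; values per library are given for those with a group mean of at least 100 CPM or an adjusted p under 0.05, and miR-370-3p, miR-666-5p and the members with 10 matched reads were added after their values were seen. The members and lists were chosen with earlier results of these data known. All sample columns used belong to this series (0 unused). Columns of non-templated 3′ bases were not used here.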

Additional observations from a re-analysis of the deposited data

Results flagged for a closer look

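The 10 members tested, the summed listed and the summed matched reads gave 48 sets of 4 libraries, 1 per group. In 6 of these sets 1 library stood far from the other 3. A rate of about 1 in 20 holds for independent, normally distributed values. These sets are not independent, since the summed listed reads contain miR-369-3p, so the 6 are not set against that rate. Control DM3 population 1 replicate 1 was high for miR-369-3p (15119 CPM, the others 587 to 2944), for the summed listed reads (16918 CPM, the others 1982 to 4430) and for miR-154-5p (36.3 CPM, the others 2.16 to 7.54). tKO DM3 clone 1 replicate 1, the shallowest library, was high for miR-370-3p (266 CPM, the others 12.3 to 30.1) and miR-380-3p (35.5 CPM, the others 1.36 to 3.52). tKO GM clone 1 replicate 2 was high for miR-494-3p (31.1 CPM, the others 3.89 to 8.08). In these 2 DM3 libraries 7.54 and 13.98% of all reads were 13 to 15 nt long, and matched reads of the members were 0 in both. The part of depth and of short reads in these values was not tested. None of the 10 members tested had DM3 and GM libraries without overlap in tKO cells. Opposite moves without overlap in control and tKO cells could therefore not arise among them.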

How the results depend on the processing

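With differentiation in control cells, 3 members were called. The count was 1 of 6 tested with only the groups compared in the fit (39.6% of all names called). It was 0 of 5 with replicate 1 alone (13.9%) and 5 of 19 with the replicates of a line summed (18.6%). With no filter on low counts it was 4 of 48 (9.64%). With sequences of 13 to 15 nt left out, or with unchanged 18 to 25 nt sequences only, it was 0, since no member could be tested. Leaving out 1 library gave 2 to 4 of 11 to 13 tested, beside 19.5 to 31.2% of all names. Members outside the 3 were called too. These were miR-673-5p and miR-337-3p with no filter and with the replicates summed, and miR-673-5p in most fits without 1 library. Neither had a matched read. In tKO cells the count of 0 became 2 of 10 with DESeq2 (26.5% of names). With the line and replicate block it was also 2 of 10 (25.7%). It was 1 of 5 with replicate 1 alone (22.8%) and 0 of 19 with the replicates of a line summed (10.6%). Leaving out 1 library gave 0 to 1 of 11 to 13 tested, beside 13.7 to 19.1% of names. Between the tKO clones the count of 0 became 1 of 8 with DESeq2 (6.31%). Leaving out 1 library there gave 0 to 1, beside 0.714 to 11.8% of names. The counts of 0 for tKO against control, the interaction and the control populations were 0 under each alternative run. These runs called 0.314 to 3.64% of all names for tKO against control in GM and 0.162 to 6.58% in DM3. They called 0 to 0.106% for the interaction and 0% for the control populations. With 13 to 15 nt sequences left out, or unchanged 18 to 25 nt sequences only, no member could be tested, so those counts could only be 0. With the replicate block alone, 3 of 10 members were called in control cells (30.6% of all names) and 0 of 10 in tKO cells (21.3%). The main fit did not take the replicate numbers as pairs. Same-numbered libraries of different groups did not deviate together in every pair (48 pairs, mean r 0.0905, lowest -0.40). Pairs with different numbers had a lower mean r of -0.0856 (48 pairs, lowest -0.50). A shared effect of the replicate number was not tested. Scaling by total counts moved the median of all names with differentiation in control cells from -0.04 to 0.33; the 3 differences kept their direction under each scaling.

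The summed level of 2154, 2342, 6913 and 3096 CPM (control GM, tKO GM, control DM3, tKO DM3) fell to means of 4.25, 6.85, 1.39 and 6.27 CPM for unchanged 18 to 25 nt sequences, and to 4.41, 6.89, 1.93 and 6.67 CPM for matched reads. Leaving out 1 library gave 1663 to 2409, 1960 to 2657, 3578 to 8557 and 2423 to 3749 CPM. No editing site reached 100 reads, or 30 or 300, in a library, so these minimums gave no value; the 3′ tail alternative was not run. Depth limits the shallow libraries: the exact Poisson upper bound for a count of 0 was up to 32.7 CPM.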
